A study of Mus musculus with 75 samples.

Results

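Fatty acid oxidation, ketone body and PPARalpha target genes were followed across 75 mouse liver libraries. The set held 37 genes, taken by gene symbol from a fixed list out of the 55536 genes in the count table. The rule uses no measured value, but the genes were chosen with earlier results of these data known. Each of the 37 genes passed the filter on low counts in every comparison. The genes fell into 8 roles. Cd36, Fabp1 and Acsl1 served uptake, binding and activation, and Cpt1a, Slc25a20, Cpt2 and Crat the carnitine shuttle. Mitochondrial beta-oxidation had 10 genes, electron transfer 3, peroxisomal oxidation 7 and the acyl-CoA thioesterases 4. Bdh1 and Aldh3a2 are dehydrogenases of ketone bodies and fatty aldehydes. Pdk4, Angptl4, Creb3l3 and Vnn1 are regulators and secreted or surface proteins.

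In hepatocytes, fatty acids are bound, activated to acyl-CoA and carried into mitochondria as carnitine esters, where each turn of beta-oxidation removes an acetyl-CoA and passes electrons to the respiratory chain. Peroxisomes shorten very long and branched chains. PPARalpha is a nuclear receptor that binds DNA as a dimer with RXR, is activated by fatty acids and by fibrate drugs, and raises transcription of many of these genes during fasting. Tributyltin (TBT) is an organotin compound known to activate RXR and PPARgamma.

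The labels name C57Bl/6 as the strain of every animal and male as its sex, and no other allele. Mothers received vehicle or TBT in drinking water (3.07 µM, a daily dose of 0.5 mg/kg body weight) up to weaning of the pups. Livers of 3 weeks gave 8 vehicle libraries, of which 2 came from mouse 3 and were summed to leave 7 samples, and 8 TBT samples. The 5-month livers were 8 of vehicle mice, 16 of low-risk and 10 of high-risk TBT mice. The 10-month samples were 6 vehicle livers, 5 low-risk TBT livers, 6 libraries of uninvolved liver from high-risk TBT mice and 7 TBT tumors. No label explains the basis of the risk groups, and whether the assignment at 5 months used expression values is not known. At 10 months the uninvolved livers carry mouse numbers that the tumors also carry. A further 10-month vehicle library has a tumor label and entered no comparison.

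Total counts ran from 2.83 to 45.4 M per library. The libraries that stood apart were 5-month vehicle 9, with 2.83 M counts and 38206 genes detected, 5-month high-risk 10, with 39669 genes detected, and 4 libraries with 11.2% to 14.5% mitochondrial counts. The latter were 5-month high-risk 15, 5-month low-risk 16, 1 of the libraries of 3-week vehicle 3 and the vehicle library labelled as a tumor. As a group, the 6 uninvolved libraries also stood apart from every vehicle, low-risk and tumor library that entered the 10-month comparisons. They had 34.8 to 44.6 M counts, 24676 to 28715 genes detected and 4.20% to 5.85% mitochondrial counts. The others had 22.5 to 33.5 M counts, 21078 to 23868 genes and 2.64% to 3.83%. Uninvolved libraries 3 and 6 were far closer to each other than other pairs of their group (chi-square per degree of freedom 3.48 over genes, against 39.3 for the next closest pair of the group, uninvolved 1 and 5) and were summed, which left 5 uninvolved samples. The library labelled 3-week TBT 4 had 348 counts per M (CPM) of Xist and 7.08 CPM over 4 Y-linked genes, where no other library had under 93.95 CPM of the latter. Low-risk 24 of 5 months had 84.6 CPM of Xist with 237 CPM of the Y-linked genes. Nothing in the labels says more on the origin of replicates than mouse numbers. Of the 5-month livers 1 vehicle, 10 low-risk and 7 high-risk livers were sequenced in batch 2, and all other libraries in batch 1. Tissue identity was checked on 10 hepatocyte markers (Alb, Apoa1, Ttr and others), which summed to between 71533 and 236620 CPM in every sample, with no marker at 0 in every sample of a group.

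Per kilobase of exon, the levels spanned more than 3 orders of magnitude. Fabp1, the main cytosolic fatty acid binding protein of liver, stood first in vehicles of all 3 ages, with a mean of 5230 CPM per kb at 3 weeks, 5671 at 5 months and 6595 at 10 months. Acaa2, the mitochondrial thiolase, followed with 640.2 CPM per kb at 10 months, and Acaa1b, a peroxisomal thiolase, with 382. Acsl1, the long-chain acyl-CoA synthetase, had 202 and Hsd17b4, a peroxisomal bifunctional enzyme, 159. The thioesterases, which split acyl-CoA into free acid and coenzyme A, were lowest: Acot1 had 6.33, Acot4 5.39, Acot3 4.80 and Acot2 3.04 CPM per kb. Acot1 to Acot4 lie side by side on chromosome 12 (GRCm38), from 83987861 at the start of Acot2 to 84060402 at the end of Acot3. Of the 50-base words in the transcripts of Acot2, 27.7% also occurred in other genes and 24.5% in Acot1, and for Acot1 the shares were 19.2% and 13.6%. How reads shared by such copies were counted is not stated, so their values are uncertain in that respect. The same holds for Acaa1b, with 39.6% shared words and 30.5% shared with Acaa1a, and for Etfb, with 44.8%, mostly an overlapping predicted gene. Acadvl shared 26.9% of its words with Dvl2 on the other strand, and whether counting used strand is not stated.

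The promoter of Fabp1 is shown because it had the highest level and was lower in high-risk, uninvolved and tumor samples, and because it alone held the motif searched. PPARalpha and RXR bind direct repeats spaced by 1 base, and the motif was AGGNCA, any base, AGGNCA, on both strands, in windows from 250 bases before to 50 after each RefSeq start (GRCm38.p6, 32851 promoters). It was found in 125 promoters (0.381%), and among the 31 of 37 genes with an entry in 1, that of Fabp1. The stricter repeat of AGGTCA with the same spacing was found in 13 promoters (0.0396%) and in none of these genes. The 250 bases before the start of Fabp1 (chr6:71199629-71199878, plus strand) read as follows, with the match, which lies on the reverse strand and begins 67 bases before the start, in capitals.
Fabp1 promoter: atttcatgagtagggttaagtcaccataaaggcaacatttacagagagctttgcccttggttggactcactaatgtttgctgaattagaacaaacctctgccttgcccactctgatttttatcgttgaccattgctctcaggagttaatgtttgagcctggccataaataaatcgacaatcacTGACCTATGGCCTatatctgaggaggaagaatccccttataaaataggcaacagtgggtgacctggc
Read in the direction of the repeat, the match is AGGCCATAGGTCA. This is a description of letters, and no binding was measured.

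Within groups, single mice were highest or lowest in many of the genes at once. Among 7 vehicles of 3 weeks, mouse 1 was lowest in 33 of the 37 genes (16.3% of all genes tested) and mouse 6 highest in 27 (15.6%). Among 8 TBT livers of 3 weeks, mouse 8 was highest in 27 (16.5%). Among the vehicles of 5 months, mouse 9, the shallow library named above, was lowest in 33 (46.5% of all genes) and mouse 2 highest in 25 (9.32%). Among 6 vehicles of 10 months, mouse 4 was lowest in 25 (17.1%) and mouse 7 highest in 30 (16.8%). The spread was widest at 5 months: the median coefficient of variation over the genes was 40.3% in vehicles, 29.2% in low-risk and 27.0% in high-risk livers. At 3 weeks it was 26.3% in vehicles and 24.1% in TBT livers, and in the 4 groups of 10 months 13.9% to 17.5%. The 5-month vehicles include the shallow mouse 9, and only the 5-month groups mix sequencing batches. The labels do not give feeding state or hour of sampling.

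**Figure D1:**
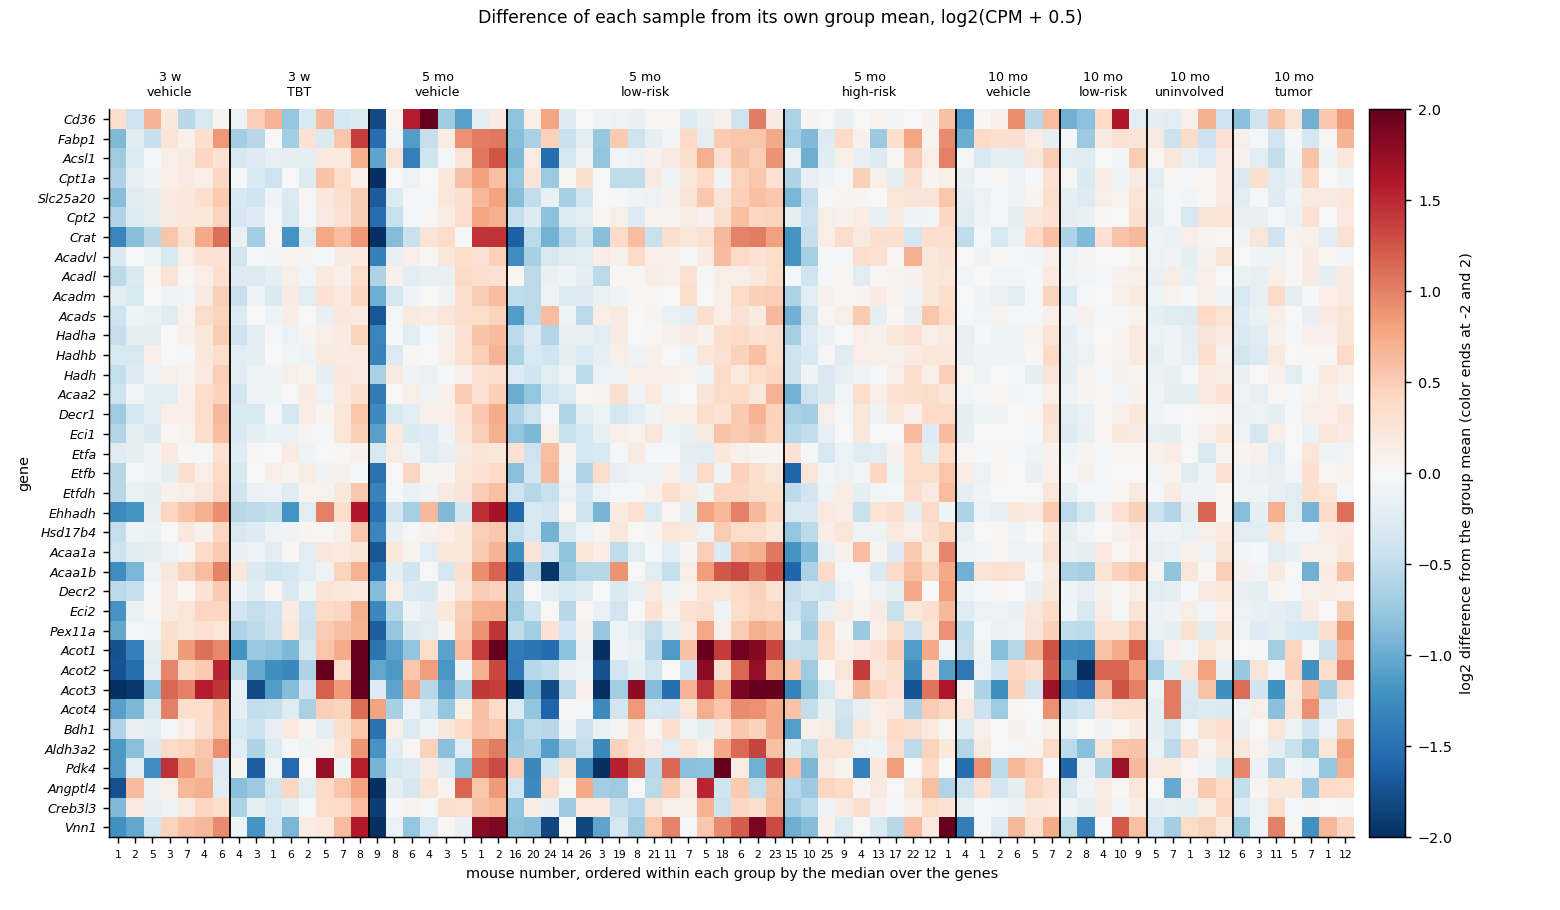
Difference of each sample (columns, by mouse number) from its own group mean on the log2(CPM + 0.5) scale for the 37 genes (rows), with groups set apart by black lines. Whole columns are red or blue, as for 5-month vehicle 9 (lowest in 33 genes) and 10-month vehicle 7 (highest in 30 genes), and Acot1 to Acot3, Pdk4 and Vnn1 show strong colors.

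The vehicles of 5 months give an example of these ranges. Ehhadh, the peroxisomal bifunctional enzyme and a classical PPARalpha target, ran from 116 CPM in vehicle 9 to 906 in vehicle 1 and 1040.2 in vehicle 2 at 5 months. Vnn1, a pantetheinase on the cell surface, ran in the same animals from 6.83 CPM in vehicle 9 to 132 in vehicle 1 and 138 in vehicle 2, with the other 5 vehicles between 21.5 and 38.0. Acot1, the cytosolic thioesterase, ran from 4.44 CPM in vehicle 9 to 35.1 in vehicle 1 and 55.4 in vehicle 2. Vehicles 1 and 2 were thus high and vehicle 9 low for all 3 genes.

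At weaning, no difference between TBT and vehicle livers was called for any of the 37 genes. A gene is called here when its p-value from edgeR's quasi-likelihood test, adjusted over all genes tested, is under 0.05. Of 14050 genes tested, 0 were called (0%), 474 had an unadjusted p under 0.05, and 3.37% of all genes, and none of those 474 was among the 37. DESeq2 called 0 of the 37. The log2 fold changes ran from -0.35 for Acot3 to 0.29 for Acot2, with a median of -0.01 over the 37 and 0.01 over all genes. Fabp1 ran from 1356 through a median of 1990 to 5682 CPM in TBT livers and from 1464 through 2902 to 4945 in vehicles, a log2 difference of -0.22 ± 0.32 (SE, n = 8 and 7). Cd36, a membrane transporter that takes up long-chain fatty acids, ran from 40.6 through 60.7 to 111 CPM in TBT livers and from 48.1 through 73.2 to 114 in vehicles. The groups overlapped for both genes. The count stayed 0 without TBT 4. Ppara itself, which encodes the receptor, ran from 124 to 219.6 CPM in TBT livers and from 88.1 to 225 in vehicles.

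**Figure D2:**
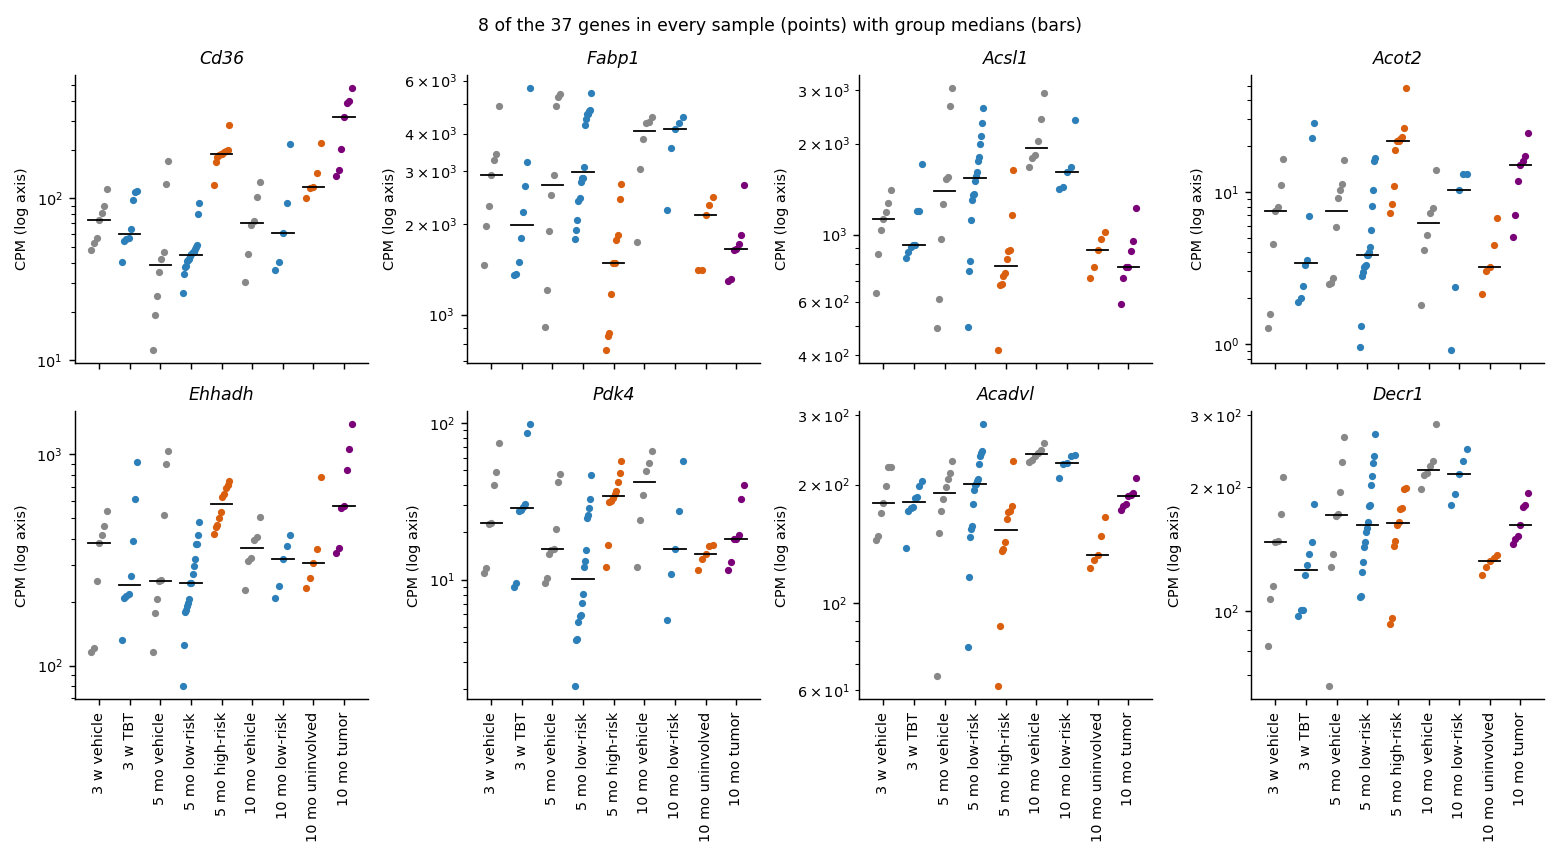
CPM (log axis) of 8 of the genes in every sample (points) of 9 groups, with group medians as bars. Cd36 is highest in 5-month high-risk livers and 10-month tumors, while Fabp1 and Acsl1 are low in high-risk, uninvolved and tumor samples, and Acadvl and Decr1 in uninvolved livers.

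At 5 months, high-risk livers differed from low-risk livers in both directions. Of the 37 genes, 5 rose and 9 fell, which is 37.8% called, close to the 38.9% of all 14773 genes tested. Among all genes, 20.3% rose and 18.5% fell. The median log2 fold change was -0.11 over the 37 and -0.01 over all genes. Those that rose were Cd36, Acot2, Pdk4, Ehhadh and Aldh3a2. Those that fell were Fabp1, Acsl1, Acaa1a, Acads, Eci1, Acaa2, Eci2, Etfa and Decr2.

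Uptake, binding and activation split. Cd36 ran from 121 through a median of 188 to 282 CPM in 10 high-risk livers and from 26.1 through 44.7 to 94.3 in 16 low-risk livers. Every high-risk liver stood above every low-risk liver, which held for 1.25% of all genes tested and for no other of the 37. The log2 fold change was 1.98 ± 0.27 (SE; edgeR adjusted p = 1.0e-06). Fabp1 ran from 764 through 1486 to 2723 CPM in high-risk livers and from 1787 through 2975 to 5441 in low-risk livers. Most high-risk livers were low but the groups overlapped, and the log2 change was -1.16 ± 0.26 (SE; edgeR adjusted p = 0.000598). Acsl1 fell by 0.80 on the log2 scale, from a median of 1534 to 788 CPM.

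None of the 4 carnitine shuttle genes was called. Cpt1a, the outer-membrane transferase that controls entry into mitochondria, had medians of 623 CPM in high-risk and 675 in low-risk livers, a log2 difference of -0.01 ± 0.18 (SE). Of the 10 mitochondrial beta-oxidation genes, 3 fell. Acads, the short-chain acyl-CoA dehydrogenase, ran from 53.0 through 106 to 152 CPM in high-risk livers and from 72.5 through 168 to 247 in low-risk livers (log2 fold change -0.60 ± 0.18 SE, edgeR adjusted p = 0.00705), with overlap. Eci1, an isomerase for unsaturated chains, fell by 0.55 and Acaa2 by 0.49. The dehydrogenases of longer chains, Acadvl, Acadl and Acadm, were not called at -0.38, -0.10 and 0.11, and neither were the trifunctional protein subunits Hadha (-0.11) and Hadhb (-0.02). Of the electron transfer genes, which pass electrons from acyl-CoA dehydrogenases to ubiquinone, Etfa fell: it ran from 133 through 157 to 219 CPM in high-risk and from 175 through 235 to 355 in low-risk livers (log2 fold change -0.48 ± 0.11 SE, edgeR adjusted p = 0.000764).

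Peroxisomal genes moved in opposite directions. Ehhadh ran from 419 through 583 to 745 CPM in high-risk and from 79.8 through 246 to 481 in low-risk livers, with a log2 change of 1.18 ± 0.27 (SE; edgeR adjusted p = 0.000718). Acaa1a, a peroxisomal thiolase, Eci2 and Decr2, which handle unsaturated chains, fell by 0.62, 0.49 and 0.42. The call of Acaa1a was lost without high-risk 10, 15 or 25, at values from -0.60 to -0.53. Hsd17b4, Acaa1b and Pex11a were not called. Among the thioesterases, Acot2, the mitochondrial form, ran from 7.26 through 21.7 to 48.5 CPM in high-risk and from 0.955 through 3.84 to 16.6 in low-risk livers, a log2 change of 1.98 ± 0.33 (SE; edgeR adjusted p = 1.81e-05). Its neighbours Acot1, Acot3 and Acot4 were not called, at 0.60 ± 0.47, -0.18 ± 0.61 and 0.06 ± 0.25 (SE). Aldh3a2 rose by 0.63, from a median of 282 to 441 CPM. That call was lost for 7 of 18 samples left out in turn (vehicle 4 and high-risk 1, 9, 12, 13, 17 and 25), at values from 0.56 to 0.63. Pdk4, a kinase that switches off pyruvate dehydrogenase, ran from 12 through 34.3 to 57.1 CPM in high-risk and from 2.08 through 10.0 to 46.3 in low-risk livers (log2 fold change 1.27 ± 0.37 SE, edgeR adjusted p = 0.00692). Creb3l3, a membrane-bound transcription factor of the fasting response, Angptl4 and Vnn1 were not called.

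Markers of cell types and of metabolic state were read beside these for the 5-month risk groups. Of all genes 38.9% were called there, 20.3% higher and 18.5% lower, and some marker lists lay near that share. The 10 hepatocyte markers summed to between 86524 and 197336 CPM in high-risk and between 105505 and 194699 in low-risk livers, with 4 lower and 1 higher. Cd36 is also made by macrophages, endothelium and adipocytes. The 10 macrophage markers summed to between 299 and 679 CPM in high-risk and between 261 and 663 in low-risk livers, with 6 higher and 1 lower, the 8 endothelial markers to between 226 and 484 against 265 and 502, and the 6 adipocyte markers to medians of 2.08 and 0.652 CPM. The 8 stellate and fibroblast markers ran from 537 to 1346 CPM against 310.2 to 641, the 6 cholangiocyte markers from 33.2 to 352 against 27.3 to 233, and all 6 proliferation markers were higher. Of 10 genes of lipogenesis in the fed state 8 were lower and none higher, with a median log2 change of -0.99. Of 6 genes of fasting and gluconeogenesis 3 were higher and 1 lower, with a median of 0.41, and of 12 circadian clock genes 4 were lower. No marker in these lists was at 0 in every sample of either group, and the part of these shifts in the differences of the 37 genes was not tested.

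The 5-month result was looked at within each sequencing batch. In batch 2, with 7 high-risk and 10 low-risk livers, 8 of the 37 were called, below the 32.3% of all genes called there: Cd36 (2.06), Acot2 (1.95), Ehhadh (1.31) and Aldh3a2 (0.79) were higher and Fabp1 (-1.12), Acsl1 (-0.69), Acads (-0.60) and Etfa (-0.50) lower. In batch 1, with 3 high-risk and 6 low-risk livers, Pdk4 (2.02) was the only call of the 37, where 4.69% of all genes were called. The batch 1 values of the genes called in batch 2 had the same signs: Cd36 (1.79), Acot2 (2.02), Ehhadh (0.84), Aldh3a2 (0.29), Fabp1 (-1.27), Acsl1 (-1.05), Acads (-0.59) and Etfa (-0.46). Acaa1a, Acaa2, Eci1, Eci2 and Decr2, which fell over both batches, were called in neither batch alone. Their values were -0.90, -0.66, -0.72, -0.72 and -0.76 in batch 1 and -0.48, -0.41, -0.46, -0.39 and -0.26 in batch 2. These genes and Ehhadh, Aldh3a2, Acsl1 and Pdk4 differed by over 1.5 times between batches. The median over the 37 was -0.46 in batch 1 and 0.04 in batch 2. With no filter on low counts Acsl1, Acaa1a, Decr2 and Aldh3a2 lost their calls, and with no batch term Aldh3a2 did. Without the deviating libraries 13 of the 14 calls were kept, and Decr2 was lost.

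Against vehicles of the same age, fewer differences were called. High-risk livers had 2 genes higher and 1 lower of the 37 (8.11%), where 15.8% of all genes were called, 8.47% higher and 7.38% lower. Acot2 ran from 2.47 through 7.47 to 16.3 CPM in 8 vehicles and was higher in high-risk livers by 2.03 ± 0.45 on the log2 scale (SE; edgeR adjusted p = 0.00286). Cd36 ran from 11.6 through 38.7 to 170 CPM in vehicles and was higher by 1.64 ± 0.37 (SE; edgeR adjusted p = 0.00338). For both genes the groups overlapped. Fabp1 ran from 909 through 2706 to 5417 CPM in vehicles and was lower by -1.03 ± 0.33 (SE; edgeR adjusted p = 0.0313), a call lost with no filter, in a fit of these groups alone and without high-risk 15 or vehicle 1, 2 or 5, at -0.97 to -0.88 in the latter. Without vehicle 9 the count of calls was 6 and without high-risk 1 it was 5. With batch 1 alone, which leaves 3 high-risk livers, none of the 37 and 0% of all genes were called. Low-risk livers against vehicles gave 0 calls of the 37 and 0% of all genes, with 934 genes (6.32%) and 2 of the 37 (Acot3 and Pdk4) at an unadjusted p under 0.05 by edgeR, and DESeq2 also called 0 of the 37. The high-risk comparisons share their high-risk samples, and the low-risk livers served in both low-risk comparisons.

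**Figure D3:**
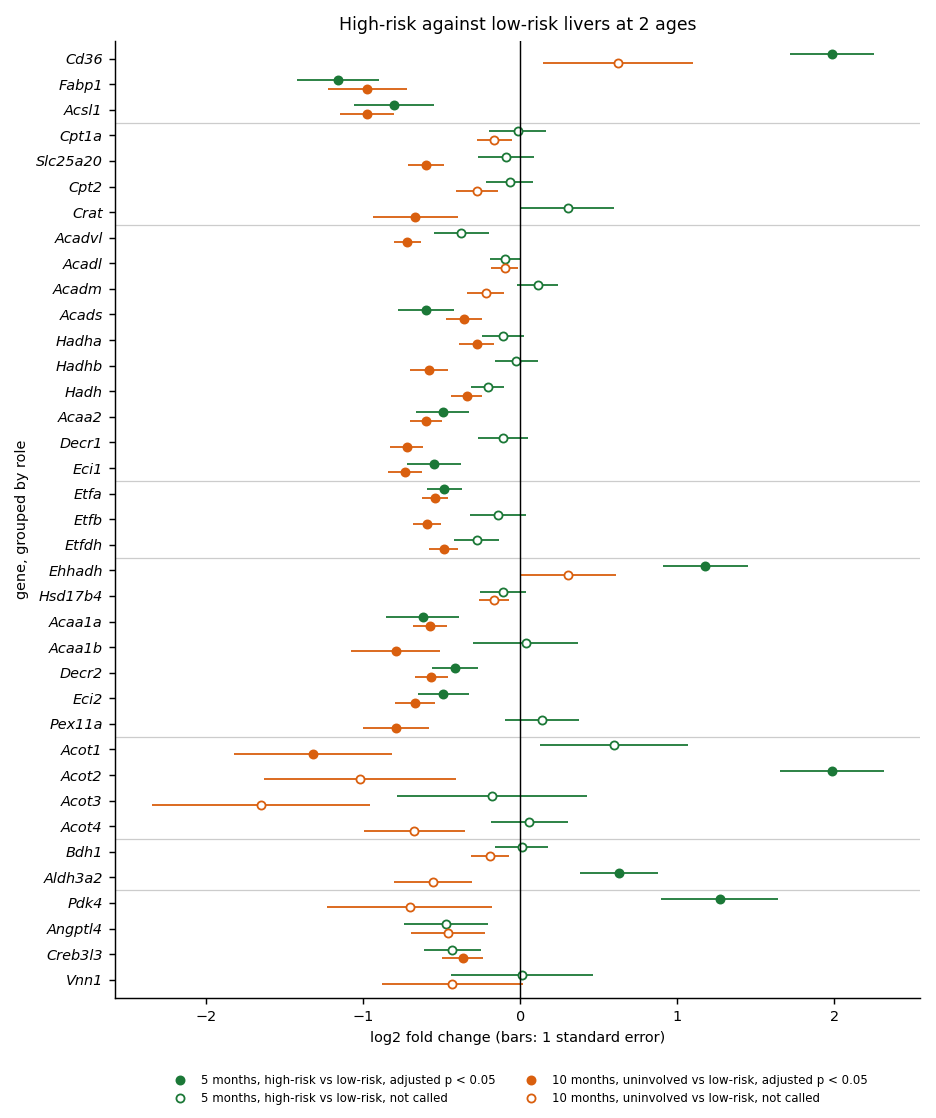
Log2 fold change (horizontal axis, bars of 1 standard error) of the 37 genes, grouped by role, at 5 months for high-risk against low-risk livers (green) and at 10 months for uninvolved against low-risk livers (orange), with filled points for adjusted p under 0.05. At 10 months the called points all lie left of 0, while at 5 months Cd36, Acot2, Pdk4, Ehhadh and Aldh3a2 lie to the right.

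At 10 months, the uninvolved livers of high-risk mice were lower than vehicles in most of the pathway. Of the 37 genes, 29 fell and 0 rose (78.4%), where 57.7% of all 16338 genes were called, 26.5% lower and 31.2% higher. The median log2 fold change was -0.61 over the 37 and 0.06 over all genes. Groups did not overlap for 16 of the 37, all lower, against 15% of all genes. Against low-risk livers of the same age, 22 fell and 0 rose (59.5%), where 52.4% of all genes were called, 24.7% lower and 27.7% higher, with medians of -0.58 and 0.05, and 13 of the 37 did not overlap, all lower, against 15% of all genes. With each of 10 samples left out in turn, calls against low-risk livers were lost for Crat in 8 and Hadha in 6. Acaa1b and Creb3l3 lost theirs in 5 each, and Acot1 is given below. The same 5 uninvolved samples entered both comparisons. In bulk liver, fewer cells of a type and less RNA per cell cannot be told apart. The uninvolved libraries also differed from the other groups in depth, genes detected and mitochondrial share, as given above. The part of this in the comparisons with uninvolved livers, those of tumors included, was not tested.

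Acsl1 had 719, 783, 889.5, 968 and 1018 CPM in the 5 uninvolved livers and ran from 1678 through 1941 to 2941 in 6 vehicles. Every uninvolved liver was below every vehicle, and the log2 change was -1.29 ± 0.17 (SE; edgeR adjusted p = 7.54e-06). In low-risk livers Acsl1 had 1415, 1432, 1615, 1677 and 2387 CPM, also above every uninvolved liver (log2 fold change -0.98 ± 0.17 SE). Fabp1 had 1404, 1404, 2138, 2306 and 2456 CPM in uninvolved livers and from 1744 through 4089 to 4531 in vehicles, and fell by 0.92 on the log2 scale, with overlap through 1 vehicle. Cd36 had 101, 115, 117, 144 and 221 CPM in uninvolved livers against 30.2 through 70.6 to 127 in vehicles, and was not called at 0.90 ± 0.46 (SE; edgeR adjusted p = 0.104).

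Of the carnitine shuttle, Slc25a20, the carrier for acylcarnitine across the inner membrane, had 78.3, 83.6, 84.8, 88.7 and 98.3 CPM in uninvolved livers and at least 128 in vehicles, without overlap (log2 fold change -0.76 ± 0.11 SE). Cpt2 fell by 0.37 and Crat by 0.67, both with overlap, and Cpt1a was not called at -0.09 ± 0.11 (SE). Crat's call was lost for 7 of 16 samples left out (uninvolved 1, 3, 5, 7 and 12 and vehicles 5 and 7, at -0.69 to -0.53), and Cpt2's for 3 (uninvolved 1 and 5 and vehicle 7, at -0.32 to -0.28).

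Of the 10 mitochondrial beta-oxidation genes, 9 fell against vehicles and 8 against low-risk livers. Acadvl, the very long-chain dehydrogenase, had 123, 128, 132, 148 and 166 CPM in uninvolved livers and from 229 through 239 to 256 in vehicles (log2 fold change -0.79 ± 0.08 SE, edgeR adjusted p = 7.44e-07). Low-risk livers had 209, 226, 228, 236 and 239 CPM, so that neither control group overlapped with the uninvolved livers (log2 fold change against them -0.72 ± 0.08 SE, edgeR adjusted p = 5.0e-06). Decr1, the reductase for unsaturated chains, had 122, 128, 132, 135 and 137 CPM in uninvolved livers, from 198 through 221 to 285 in vehicles and from 181 through 215 to 248 in low-risk livers, again without overlap (-0.82 ± 0.10 and -0.72 ± 0.10 SE, edgeR adjusted p = 4.59e-06 and 3.4e-05). Eci1 fell by 0.83 against vehicles and by 0.73 against low-risk livers. Acadl was the exception, with a log2 difference of -0.14 ± 0.08 (SE) from vehicles, and Acadm (-0.22) was a second against low-risk livers.

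All 3 electron transfer genes fell without overlap in both comparisons. Etfb had from 29.1 through 33.2 to 42.6 CPM in uninvolved livers, from 51.3 through 56.9 to 62.8 in vehicles and from 50.6 through 51.5 to 55.4 in low-risk livers (log2 fold changes -0.71 ± 0.09 and -0.59 ± 0.09 SE, edgeR adjusted p = 4.06e-06 and 5.5e-05). Etfa fell by 0.60 against vehicles and Etfdh by 0.57.

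Of the 7 peroxisomal genes, 6 fell against vehicles and 5 against low-risk livers, with Ehhadh as the exception in both. Pex11a, a peroxisome division protein, fell by 0.97 against vehicles, Acaa1b by 0.87, Eci2 by 0.70, Acaa1a by 0.61, Decr2 by 0.59 and Hsd17b4 by 0.26. Ehhadh had 233, 259, 306, 356 and 782 CPM in uninvolved livers, where the highest was the summed sample of libraries 3 and 6, and from 228 through 359 to 507 in vehicles (log2 difference 0.09 ± 0.29 SE, not called). The call of Hsd17b4 was lost without uninvolved 1, 5 or 7 or vehicle 7, at -0.23 to -0.21.

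Among the thioesterases, Acot3 had 0.733, 1.86, 2.20, 3.78 and 5.42 CPM in uninvolved livers and from 5.30 through 11.8 to 43.6 in vehicles (log2 fold change -2.57 ± 0.69 SE, edgeR adjusted p = 0.00552), overlapping by a single sample. Acot1 had 5.19, 6.67, 7.49, 7.52 and 8.03 CPM in uninvolved livers and from 11.6 through 17.8 to 52.6 in vehicles, without overlap (-1.84 ± 0.49 SE, edgeR adjusted p = 0.00535). In low-risk livers Acot1 had 5.46, 5.56, 20.4, 23.1 and 31.5 CPM, a log2 change of -1.32 ± 0.50 (SE; edgeR adjusted p = 0.038), lost for 8 of 10 samples left out in turn (low-risk 4, 9 and 10 and each uninvolved sample, at -1.37 to -0.98). Acot4 had 13, 13.3, 13.6, 14.3 and 34.0 CPM in uninvolved livers and from 20.4 through 34.0 to 63.9 in vehicles (-1.04 ± 0.31 SE, edgeR adjusted p = 0.0095). Acot2 was not called, at -0.76 ± 0.59 (SE) against vehicles.

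Pdk4 had 11.5, 13.5, 14.6, 16.3 and 16.6 CPM in uninvolved livers and from 12 through 42.1 to 66.0 in vehicles, with a log2 change of -1.49 ± 0.51 (SE; edgeR adjusted p = 0.0225), lost without uninvolved 12 (-1.41) or 3 (-1.45). Against low-risk livers, which ran from 5.49 to 57.1 CPM, it was not called. Creb3l3 fell by 0.44 against vehicles, and Aldh3a2 by 0.58, a call lost for 10 of 16 samples left out (low-risk 4, uninvolved 3, 5, 7 and 12 and vehicles 1, 2, 5, 6 and 7, at -0.64 to -0.47). Bdh1, which interconverts the ketone bodies, Angptl4, a secreted inhibitor of lipoprotein lipase, and Vnn1 were not called, at -0.09, -0.52 and -0.12.

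Low-risk livers of 10 months gave 0 calls of the 37 against vehicles and 0% of all genes by edgeR, with 688 genes (4.21%) and none of the 37 at an unadjusted p under 0.05. DESeq2 called 0 of the 37. The values ran from -0.92 for Acot3 to 0.31 for Vnn1, with a median of -0.07. The count for uninvolved livers against vehicles depends on which samples count as vehicle. With the vehicle library that has a tumor label added to the vehicles it was 18 in place of 29, all lower, and 36.3% of all genes were called. Fabp1, Cpt2, Crat, Acadm, Acads, Hadha, Hsd17b4, Acaa1a, Acaa1b, Aldh3a2 and Creb3l3 lost their calls. That library was below all 6 vehicles in 28 of the 37 genes, within their range in 8 and above them in 1, where 41.6% of all genes were below, 22.9% within and 35.5% above. It had 194 CPM of Cd36, where vehicles had at most 127.

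**Figure D4:**
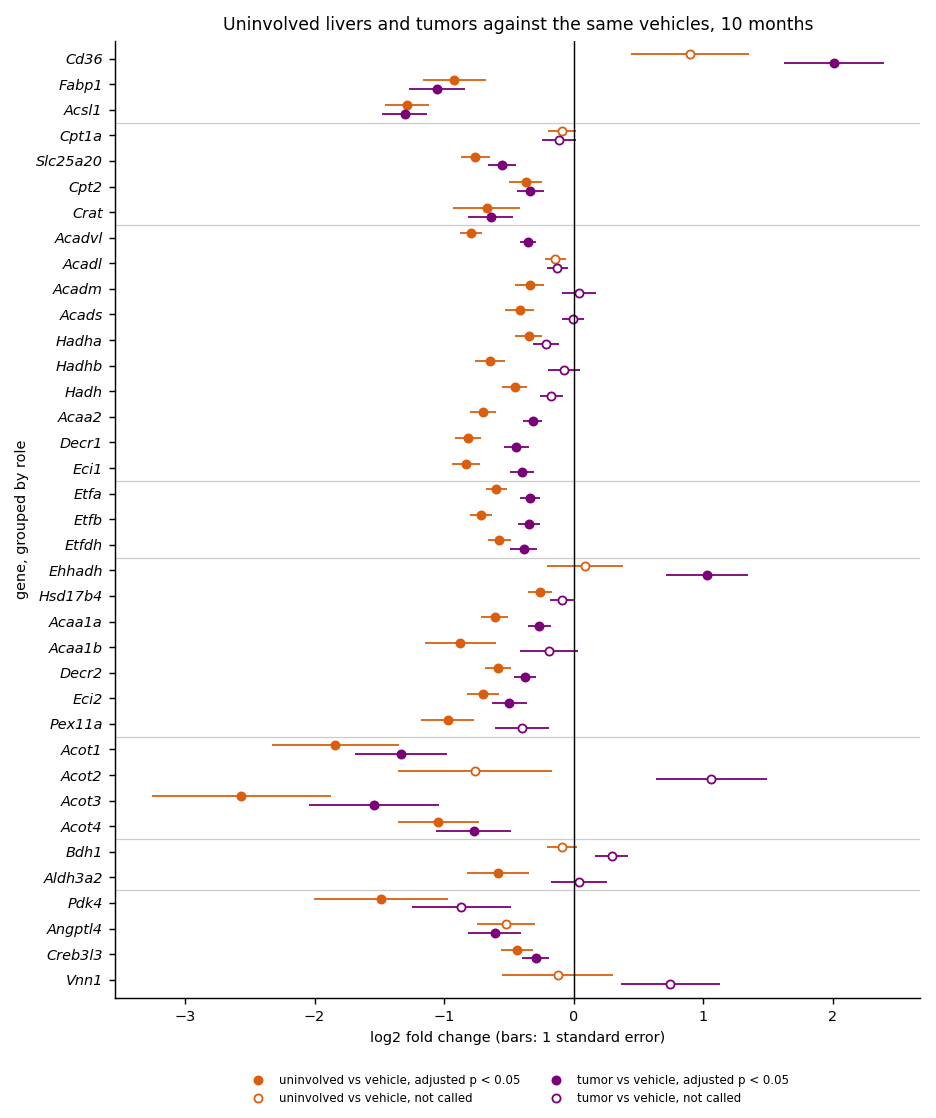
Log2 fold change (horizontal axis, bars of 1 standard error) of the 37 genes at 10 months for uninvolved livers (orange) and tumors (purple) against the same 6 vehicles, with filled points for adjusted p under 0.05. Most points of both colors lie left of 0, and Cd36 and Ehhadh of the tumors lie right of it (2.01 and 1.03).

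Tumors were compared with the uninvolved livers of high-risk mice. Of the 37 genes 7 rose and 0 fell (18.9%, where 18.1% of all 16362 genes were called, 7.55% higher and 10.5% lower), with a median log2 fold change of 0.33 over the 37 and -0.01 over all genes. Acot2 had 2.13, 3.04, 3.21, 4.51 and 6.78 CPM in uninvolved livers and from 5.04 through 14.9 to 24.6 in 7 tumors, a log2 change of 1.80 ± 0.38 (SE; edgeR adjusted p = 0.00877). All but 1 tumor stood above every uninvolved liver. Cd36 ran from 137 through 320 to 484 CPM in tumors and rose by 1.08 ± 0.32 (SE; edgeR adjusted p = 0.0337). The others were 5 of the 10 mitochondrial beta-oxidation genes. Acadvl ran from 172 through 187 to 208 CPM in tumors, above every uninvolved liver, as for 3.81% of all genes (0.40 ± 0.10 SE, edgeR adjusted p = 0.0135). Hadhb, a trifunctional protein subunit, ran from 185 through 241 to 311 CPM (0.53 ± 0.13 SE, edgeR adjusted p = 0.0175) and Eci1 from 66.4 through 83.5 to 99.5 (0.40 ± 0.11 SE, edgeR adjusted p = 0.024), both overlapping the uninvolved range. Acaa2 rose by 0.35 and Decr1 by 0.33, the latter without overlap.

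Tumors and uninvolved livers share mouse numbers in their titles, and those with the same number were taken to come from the same mouse. The block over 6 pairs took uninvolved libraries 3 and 6 apart, although their counts were nearly alike, so those 2 pairs may not be independent. With that block 10 genes were called, all higher, and 11.7% of all genes. Of the 7 above, Acadvl, Decr1, Eci1 and Acot2 kept their call, at 0.42, 0.36, 0.37 and 1.61. Cd36 (0.78), Hadhb (0.45) and Acaa2 (0.33) lost it, and Etfb, Acaa1a, Acaa1b, Pex11a, Acot4 and Aldh3a2 gained it. The block without mice 3 and 6, a setting added after seeing the data, called 14, all higher, of which 6 were among the 7, and 18.2% of all genes. Without a block, leaving out 1 sample gave between 2 and 10 calls: 2 without uninvolved 1 or 5, 3 without uninvolved 7 and 4 without tumor 1 or 12. Cd36 lost its call without uninvolved 1, 5, 7 or 12 or tumor 1, 5, 11 or 12 (0.92 to 1.10), Decr1 without uninvolved 1, 5 or 7 or tumor 1 or 12 (0.29 to 0.35), Eci1 without uninvolved 1, 5 or 7 (0.36 to 0.41) and Hadhb without uninvolved 1 or 5 (0.49 to 0.51). Acaa2 lost it for 9 of 12 samples left out (all but uninvolved 3 and 12 and tumor 3, at 0.31 to 0.36), while Acot2 and Acadvl kept it throughout. With no filter Cd36, Acaa2 and Decr1 lost their calls.

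Against vehicles, 2 of the 37 genes rose and 20 fell in tumors (59.5%, where 45.9% of all 15293 genes were called, 24.8% higher and 21% lower), with medians of -0.33 and -0.01. Cd36 stood above every vehicle in all 7 tumors, as for 10.8% of all genes (log2 fold change 2.01 ± 0.38 SE, edgeR adjusted p = 0.000875). Ehhadh ran from 343 through 567 to 1390.2 CPM in tumors, overlapping the vehicles (1.03 ± 0.32 SE, edgeR adjusted p = 0.0163). Acsl1 ran from 591 through 782 to 1228 CPM, below every vehicle, as for 7 of the 37 and 9.54% of all genes (-1.30 ± 0.17 SE, edgeR adjusted p = 4.5e-05). Fabp1 ran from 1297 through 1651 to 2701 CPM, with overlap (-1.06 ± 0.21 SE, edgeR adjusted p = 0.00109). Slc25a20 ran from 81.5 through 95.3 to 114 CPM and Acadvl, given above, likewise stood below every vehicle (-0.55 ± 0.11 and -0.35 ± 0.06 SE, edgeR adjusted p = 0.000856 and 0.000442). Acot1 fell by 1.33 and Acot3 by 1.54, the latter not called without vehicle 7 (-0.95). With no filter Ehhadh, Acot3, Acot4 and Angptl4 lost their calls. With each of 13 samples left out in turn, calls were also lost for Acot4 in 10 and Creb3l3 in 6. Acaa1a and Angptl4 lost theirs in 3 each and Cpt2 in 1. Of the beta-oxidation genes 4 of 10 fell (Acadvl, Acaa2, Decr1 and Eci1), all 3 electron transfer genes fell, and Acads and Hadhb stood at -0.00 and -0.08. If the vehicle library with the tumor label is added to the vehicles, 10 of the 37 (2 higher and 8 lower) and 27.8% of all genes were called.

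Cell type markers were read at 10 months as well. Of all genes, 26.5% were called lower and 31.2% higher in uninvolved livers against vehicles. In tumors against vehicles the shares were 21% and 24.8%. The 10 hepatocyte markers summed to between 86813 and 122850 CPM in uninvolved livers, below every vehicle (142879 to 170082) and every low-risk liver (133786 to 147877). Of the 10, 5 fell against vehicles and none rose, with a median log2 change of -0.33, which stands beside the -0.61 of the 37 genes. The 6 cholangiocyte markers summed to between 106 and 212 CPM in uninvolved livers and between 38.1 and 54.2 in vehicles, and all 6 rose. The 8 stellate and fibroblast markers summed to between 592 and 765 CPM against 296 to 519, with 5 higher and 1 lower. All 6 proliferation markers rose. In tumors the hepatocyte markers summed to between 88883 and 145723 CPM and the cholangiocyte markers to between 147 and 769, and the median log2 change of the hepatocyte markers was -0.41 against vehicles and -0.20 against uninvolved livers. The 6 adipocyte markers had medians of 14.7 CPM in tumors, 7.46 in uninvolved livers and 2.64 in vehicles. Of the 10 lipogenesis genes, 5 fell in uninvolved livers and 5 in tumors against vehicles, and of the 6 fasting genes 1 rose and 2 fell in both. The part of these shifts in the differences of the 37 genes was not tested.

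Whether the high-risk minus low-risk difference changed between 5 and 10 months was tested with an interaction term. It covered 5-month high-risk and low-risk and 10-month uninvolved and low-risk samples. The 10-month high-risk arm was uninvolved liver, with tumors under the same mouse numbers, and its libraries stood apart as given above. Age cannot be told apart from either in this term. Of the 37 genes 0 were higher and 1 was lower, Acot2, where 0.448% of all 16084 genes were called. For Acot2 the term was -2.99 ± 0.70 (SE; edgeR adjusted p = 0.0434), where the difference was 1.98 at 5 months and -1.02 at 10 months, the latter not called. At 10 months the uninvolved livers had 2.13 to 6.78 CPM and the low-risk livers 0.916, 2.37, 10.3, 13.1 and 13.1. The call was lost with no filter, with no batch term and for 8 of 10 samples left out (low-risk 2, 4, 9 and 10 and uninvolved 1, 5, 7 and 12, at -3.23 to -2.71). For Cd36, Pdk4 and Ehhadh, which rose at 5 months and were not called against low-risk livers at 10 months, the interaction was -1.35 ± 0.40, -1.97 ± 0.70 and -0.85 ± 0.40 (SE), and none passed the threshold (edgeR adjusted p = 0.123, 0.228 and 0.386).

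Among vehicles of batch 1, age had few calls in these genes. From 3 weeks (n = 7) to 5 months (n = 7), 3 of the 37 rose and 1 fell (10.8%, where 24.2% of all genes were called, 11.9% higher and 12.3% lower). Cpt2, the inner-membrane carnitine transferase, ran from 61.7 through 107 to 128 CPM at 3 weeks and from 50.2 through 160.3 to 250.4 at 5 months (log2 fold change 0.78 ± 0.21 SE, edgeR adjusted p = 0.00912). Acaa1a (0.61) and Hsd17b4 (0.49) also rose, and Bdh1 fell by 0.58. The groups overlapped. Of the 4 calls, Cpt2's was kept for each of 20 vehicles left out, Acaa1a's was lost for 8 (3-week 1, 2, 3, 5 and 7 and 5-month 1, 2 and 3, at 0.49 to 0.62), Hsd17b4's for 9 (3-week 1 to 5 and 5-month 1, 2, 3 and 5, at 0.41 to 0.51) and Bdh1's for 12 (3-week 3 to 7, 5-month 4 and 6 and 10-month 1, 2, 5, 6 and 7, at -0.60 to -0.47). Without 5-month vehicle 9, the shallow library, 11 genes were called, 10 higher and 1 lower, and 39.3% of all genes. Leaving out any other of the samples gave 1 to 4 calls: 1 without 3-week vehicle 3 or 5, and 2 without 3-week vehicle 1, 2, 4 or 7 or 5-month vehicle 1, 2 or 3. From 5 to 10 months, 2 of the 37 rose (5.41%, where 14.1% of all genes were called, 6.68% higher and 7.41% lower). Hadh, the short-chain hydroxyacyl-CoA dehydrogenase, ran from 146 through 222 to 289 CPM at 5 months and from 297 through 332 to 401 at 10 months, without overlap, as for 3.94% of all genes in that direction (0.52 ± 0.14 SE, edgeR adjusted p = 0.0163). Acot3 rose by 2.11 ± 0.69 (SE; edgeR adjusted p = 0.0489), a call lost for 14 of 20 samples left out, at 1.53 to 2.23, so that 1 call remained without 5-month vehicle 3, 4, 5, 6 or 9, 3-week vehicle 3, 5, 6 or 7, or 10-month vehicle 1, 4, 5, 6 or 7, while 4 genes were called without 5-month vehicle 2.

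Further genes of the pathway, 41 in all, were read beside these. Between 40 and 41 of them passed the filter. At 5 months, with high-risk set against low-risk livers, 5 rose and 15 fell, where 38.9% of all genes were called. In uninvolved livers 5 rose and 27 fell against vehicles (57.7% of all genes called) and 4 rose and 26 fell against low-risk livers (52.4%). In tumors 6 rose and 1 fell against uninvolved livers, a share near the 18.1% of all genes. Ppara, the receptor gene, ran from 87.1 through 103 to 169 CPM in 5-month high-risk and from 102 through 225 to 295 in low-risk livers (log2 fold change -0.93 ± 0.20 SE, edgeR adjusted p = 0.000313). In uninvolved livers of 10 months it ran from 108 through 117 to 129 CPM, below every vehicle (187 through 238 to 274) and every low-risk liver (199.8 through 237 to 242), and fell by 0.95 against both. Tumors ran from 110 through 128 to 205 CPM and were lower than vehicles by -0.68 ± 0.15 (SE).

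Among the targets that rise strongly with PPARalpha ligands, Cyp4a14, a fatty acid omega-hydroxylase, ran from 249 through 450 to 779 CPM in 5-month high-risk and from 0.347 through 71.2 to 336 in low-risk livers (log2 fold change 2.21 ± 0.64 SE, edgeR adjusted p = 0.00638). Cyp4a10 was not called in any comparison, and within the 10-month vehicles alone it ran from 93.4 to 1243 CPM. Fgf21, a hormone made by the fasting liver, rose by 1.25 in 5-month high-risk livers against low-risk livers. Cidec, a lipid droplet protein, had the largest log2 fold changes of these further genes: 3.01 ± 0.40 (SE) at 5 months against low-risk livers, 3.24 ± 0.42 in uninvolved livers and 4.04 ± 0.46 in tumors against vehicles. It ran from 17.1 through 31.6 to 55.7 CPM in uninvolved livers and from 1.56 through 4.48 to 5.09 in vehicles, without overlap. Acacb, which makes the malonyl-CoA that inhibits Cpt1a, fell by 1.71 at 5 months and Nudt7, a peroxisomal coenzyme A hydrolase, by 1.63. In uninvolved livers against vehicles, Abcd3, a peroxisomal acyl-CoA carrier, fell by 1.08 and Pex16, a peroxisome assembly protein, by 0.65, while the coactivators Ppargc1b and Ppargc1a rose by 1.10 and 0.86.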

How the data were processed

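RNA-seq of 75 mouse liver libraries was read from 1 table of counts per gene that the authors deposited. Per the labels' protocols, RNA was taken with RNeasy columns and DNase, and libraries were made with TruSeq Stranded Total RNA. The submitters' processing notes name Trim Galore, HISAT2, featureCounts and mm10, with no versions. The name of the deposited table says that the counts were adjusted with ComBat-seq. Its settings, and whether counting used strand, are not given in the sources used here. An adjustment that knew the groups can keep or enlarge differences between them.

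Counts were used as deposited, with libraries of 1 mouse summed. The uninvolved libraries with nearly alike counts, named above, were also summed, although their titles carry different mouse numbers. edgeR 4.0.16 (R 4.3.3, limma 3.58.1) with TMM scaling, filterByExpr and robust quasi-likelihood tests was run on all genes. Groups of 1 age were fitted together, except that tumors were fitted with each other group alone. Batch was a covariate at 5 months and in the interaction, and a Benjamini-Hochberg adjusted p under 0.05 was called. CPM are counts per M of TMM-scaled library size. Standard errors were back-calculated: each is the absolute log2 fold change divided by the square root of its quasi-likelihood F statistic. Ages were compared among batch 1 vehicles. The fit was tested on simulated data. Values came from 2.83 to 45.4 M counts per library, and the shallow libraries are less precise for genes of a few CPM. TBT was given to the mothers, and the mouse numbers in the titles do not state litters. The main tests took samples as independent, so shared litters could make their p-values too small. DESeq2 1.42.0, other scaling, no filter, left-out samples and libraries, single batches and replicate blocks were alternatives. Full values are given for genes with an absolute log2 fold change of at least 1 and for up to 3 per direction with the smallest adjusted p, with other genes by role. The further pathway genes named are up to 4 per direction with the smallest adjusted p, beside Ppara, Cyp4a10, Cyp4a14 and Fgf21. Some of the genes under this rule are not reported here. The genes and lists were chosen with earlier results of these data known.

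Same-numbered samples deviated together in some groups and not in others. Tumors and uninvolved livers share mouse numbers by title, with correlations of their deviations from -0.41 (mouse 6) to 0.72 (mouse 7).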

Additional observations from a re-analysis of the deposited data

Results flagged for a closer look

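Single samples stood far from the rest of their group in 11 of 72 gene-by-group sets tested for 9 of the genes. Chance gives about 1 in 20 for independent, normally distributed values. CPM were tested without a log, and each of the 11 was the highest sample of its group. The 16 low-risk livers of 5 months were not tested. These genes rank alike within mice and 4 of the 11 are 1 mouse, so no excess is read from the number. In 3-week TBT livers mouse 8 was high for 4 genes: 38.4 CPM of Acot1 (next 9.69), 26.7 of Acot3 (next 12.1), 1705 of Acsl1 (next 1196) and 5682 of Fabp1 (next 3220). Among 5-month high-risk livers, mouse 4 had 48.5 CPM of Acot2 (next 26.4) and mouse 1 had 282 of Cd36 (next 198). Vehicle 7 of 10 months had 43.6 CPM of Acot3 (next 18.2), and without it the difference between tumors and vehicles was not called. Low-risk liver 9 of 10 months had 2387 CPM of Acsl1 (next 1677). Uninvolved liver 7 had 34.0 CPM of Acot4 (next 14.3), and the summed uninvolved sample of libraries 3 and 6 had 782 of Ehhadh (next 356). Tumor 12 had 2701 CPM of Fabp1 (next 1842).

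The difference of high-risk from low-risk livers in Acot2 was 1.98 at 5 months and -1.02 (not called) at 10 months on the log2 scale, an interaction of -2.99 whose call was lost for 8 of 10 samples left out. The vehicle library that has a tumor label, which entered no comparison, had 194 CPM of Cd36, above the 127 of the highest vehicle.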

How the results depend on the processing

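Of 104 gene results tested under left-out samples, 75 kept their call for every sample left out and 29 lost it for at least 1. Over 2185 gene results under alternatives, 1921 kept direction and call, 263 lost the call and 1 reversed. The reversal was Fabp1 in 5-month high-risk livers against vehicles with replicate number as a block (0.17 on the log2 scale). Counts of the 37 genes called moved by over 1.5 times in the following settings. Within 5-month batches they were 1 (batch 1) and 8 (batch 2) for high against low risk, and 0 in batch 1 for high risk against vehicles. With the tumor-labelled vehicle library counted among the vehicles they were 18 for uninvolved livers and 10 for tumors. Tumors against uninvolved livers gave 4 with no filter, 16 with DESeq2, 16 in a fit of all 10-month groups, 11 with libraries 3 and 6 apart, and 14 with mouse as a block and without mice 3 and 6 (10 with them, within 1.5 times). Vehicles of 5 months against 3 weeks gave 1 with no filter and 11 without the deviating libraries. Vehicles of 10 against 5 months gave 0 with no filter, 0 with the replicate block and 4 without the deviating libraries. The interaction gave 0 with no filter, 2 with DESeq2 and 0 without the batch term. The cause of these moves was not tested. With 1 sample left out, counts ran from 12 to 16 for high against low risk at 5 months, 2 to 6 for high risk against vehicles, 17 to 25 and 25 to 30 for uninvolved livers against low-risk livers and vehicles, 2 to 10 and 17 to 24 for tumors against uninvolved livers and vehicles, 1 to 11 and 1 to 4 for the age steps and 0 to 1 for the interaction. Low-risk samples of 5 months were not left out in turn. The replicate block gave 0 calls at 3 weeks, 2 for 5-month high risk against vehicles (Cd36 not called, at 1.76), 0 for low risk at both ages, 35 (34 lower) for uninvolved livers and 18, all lower, for tumors against vehicles (Cd36 1.51 and Ehhadh 0.30, not called) and 4 for vehicles of 5 months against 3 weeks. Those numbers are shared mouse numbers only. High and low risk share none at either age, so no block could be fitted there. Genes of a few CPM, such as the thioesterases, are limited by depth, most in the library of 2.83 M counts.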

Other observations

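The vehicle library of 10 months that has a tumor label is a single sample with no replicate. Of the 37 genes, it stood below all 6 vehicles in 28, within their range in 8 and above them in Cd36, where 41.6% of all genes were below, 22.9% within and 35.5% above. Fabp1 was at 998 CPM, where vehicles had at least 1744, and Acsl1 at 684, where they had at least 1678. Its hepatocyte markers summed to 108973 CPM and its mitochondrial share of counts was 14.1%.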
